A study of Mus musculus with 6 samples.

Results

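The 28 genes described here encode enzymes of cholesterol synthesis, the proteins that set the activity of the sterol-responsive transcription factor SREBP2, and proteins that move or store cholesterol inside the cell. They are named members of a list, chosen by pathway with earlier results of these libraries known, and each was found once among the 54418 gene identifiers of the deposited count table. All 28 passed the filter on low counts that left 21236 genes for testing. RNA-seq had been run on mammary epithelial cells sorted by FACS from 4-week-old C57BL/6 females, 3 *Glis2*+/+ mice (WT) and 3 *Glis2*-/- mice carrying a germline knockout (KO), with 1 library per mouse and no treatment. The study asked which genes change expression when GLIS2, a transcriptional repressor of the GLI-similar family, is lost. The allele is a germline one, present in every tissue of the KO animals and not only in the sorted cells. The sources used here name the sequenced cells as mammary epithelial cells and no further gate was read from them.

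Cholesterol is built from acetyl-CoA through mevalonate, isoprenoid units, squalene and lanosterol, and a chain of reactions after lanosterol trims and reduces the sterol ring. SREBP2 activates the genes of this pathway when sterol in the endoplasmic reticulum is low: SCAP then carries it to the Golgi for cleavage, and the INSIG proteins hold SCAP back when sterol is plentiful. In the growing mammary epithelium the pathway supplies membranes of dividing cells, and isoprenoids made on the way anchor small GTPases to membranes.

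Promoter sequences are shown first, because binding sites of SREBP2 and of its partner NF-Y are a feature of this pathway that the choice of genes did not use. RefSeq promoter windows of GRCm38.p6, which run from 250 bases before to 50 bases after a start site, were matched by symbol for 23 of the 28 genes; *Fdft1*, *Fdps*, *Npc1*, *Sqle* and *Stard4* were not matched. The part before the start site is given 5′ to 3′ on the strand of the gene for 4 enzymes of the pathway and for both INSIG genes, with 2 motifs in capitals on either strand: CCAAT (or ATTGG), the box bound by NF-Y, and CACNCCA (or TGGNGTG), a half-site of the element bound by SREBPs. The windows are chr13:119690101-119690350 (+) for *Hmgcs1*, chr5:114444019-114444268 (+) for *Mvk*, chr5:4104698-4104947 (-) for *Cyp51*, chrX:72918271-72918520 (+) for *Nsdhl*, chr5:28071162-28071411 (+) for *Insig1* and chr1:121332590-121332839 (-) for *Insig2*, and the Ensembl starts of *Cyp51* and *Insig1* lie a little upstream, inside these windows.
Hmgcs1: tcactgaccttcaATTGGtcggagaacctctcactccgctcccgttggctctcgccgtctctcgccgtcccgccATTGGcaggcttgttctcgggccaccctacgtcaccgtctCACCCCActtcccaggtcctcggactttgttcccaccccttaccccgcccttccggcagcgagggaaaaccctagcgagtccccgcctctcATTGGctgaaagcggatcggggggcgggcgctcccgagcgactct
Mvk: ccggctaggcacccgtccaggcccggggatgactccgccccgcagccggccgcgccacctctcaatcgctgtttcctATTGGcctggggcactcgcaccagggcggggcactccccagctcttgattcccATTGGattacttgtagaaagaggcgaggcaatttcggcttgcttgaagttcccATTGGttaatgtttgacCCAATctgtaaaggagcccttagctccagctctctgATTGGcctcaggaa
Cyp51: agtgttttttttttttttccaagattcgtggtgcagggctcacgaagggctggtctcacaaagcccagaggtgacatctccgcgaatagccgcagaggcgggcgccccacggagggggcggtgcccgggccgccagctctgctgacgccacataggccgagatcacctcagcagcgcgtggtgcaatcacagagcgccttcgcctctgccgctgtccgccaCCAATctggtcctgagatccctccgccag
Nsdhl: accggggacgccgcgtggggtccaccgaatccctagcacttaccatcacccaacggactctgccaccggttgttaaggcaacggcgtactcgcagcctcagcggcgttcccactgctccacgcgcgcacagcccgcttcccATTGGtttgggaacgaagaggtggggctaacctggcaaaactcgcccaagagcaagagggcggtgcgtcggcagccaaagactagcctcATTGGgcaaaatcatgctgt
Insig1: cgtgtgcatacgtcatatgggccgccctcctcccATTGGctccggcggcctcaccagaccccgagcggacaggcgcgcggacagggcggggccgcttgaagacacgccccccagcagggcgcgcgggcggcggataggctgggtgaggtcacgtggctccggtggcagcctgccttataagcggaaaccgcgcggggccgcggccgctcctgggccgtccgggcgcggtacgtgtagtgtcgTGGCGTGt
Insig2: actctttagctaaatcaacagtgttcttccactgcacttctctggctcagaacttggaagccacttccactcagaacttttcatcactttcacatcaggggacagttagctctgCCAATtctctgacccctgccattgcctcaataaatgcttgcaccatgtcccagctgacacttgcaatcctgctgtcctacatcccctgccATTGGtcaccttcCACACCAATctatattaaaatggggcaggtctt

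A CCAAT box stood in a window of 21 of the 23 genes (91.3%), against 42.4% of the 12564 tested genes that have a window and 37.4% of all 32851 windows. In 13 of the 23 genes a single window held 2 or more of them, against 15.6% of the tested genes. *Mvk* alone has 5 in the sequence above, whereas *Acat2* and *Scap* have none in their windows. For *Insig2* the most upstream window is printed, and its other windows, chr1:121327629-121327928 and chr1:121327975-121328274, hold 0 CCAAT boxes. The Sp1 box GGGCGG was also found in 21 of the 23 genes and in 63.3% of the tested genes. For the SREBP half-site the numbers were smaller, 7 of 23 genes (30.4%) against 20.9% of the tested genes, and the E-box CACGTG was found in 5 of 23 (21.7%) against 10.8%. Both strands were searched, and the half-site printed for *Insig2* shares 3 letters with a CCAAT box. These are matches of letters and describe the sequence only, and no test was made.

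Total counts lay between 24996524 and 31393917 per library. *Glis2* itself stood at 21.7, 23.2 and 19.6 CPM, counts scaled to the TMM-normalized library size, in the WT and 10.1, 17.0 and 16.3 CPM in the KO libraries. Its counts were thus lower in every KO library but not absent (log2 fold change -0.57, and -0.37 without KO replicate 1), and on the TPM scale, which uses transcript lengths, they overlapped, at 18.8 ± 6.30 in WT and 19.2 ± 0.118 in KO (SD, n = 3). Counts summed over a gene do not show which part of it was deleted. The sort had stained for CD31, CD45 and TER-119 to mark endothelial and blood cells, along with CD24, CD49f and a dye for dead cells. Every basal and luminal marker listed, the keratins included, was detected in every library. Summed TPM of fibroblast markers lay between 755.5 and 2807 in WT and between 881.9 and 1950 in KO libraries, that of endothelial markers between 49.7 and 266.8 and between 75.7 and 257.6, that of adipocyte markers between 77.6 and 555.5 and between 153.6 and 452.5, and that of blood cell markers between 7.44 and 29.8 and between 17.7 and 55.2. Each of these ranges overlapped between the genotypes, as did those of luminal markers (3917 to 5928 and 3773 to 5997), while those of basal markers (2583 to 3329 and 3329 to 4105) met at one end. In cells sorted and sequenced in bulk, fewer cells of a type and less RNA per cell cannot be told apart.

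The level of the genes was compared per length, as TPM, values scaled to transcript length and library total, after removal of *Gm23935*, a predicted gene that held 83.0 to 85.7% of the deposited TPM. In WT cells the median level of the 28 genes was 17.6 TPM against 8.26 TPM over all tested genes, and 25 of the 28 lay above that value. *Srebf2*, which encodes SREBP2, was highest at 117.2 ± 7.20 TPM (SD, n = 3), and its range did not meet that of the next gene, *Lbr*, at 53.5 ± 7.31 TPM (SD, n = 3). *Lbr* encodes the lamin B receptor, a protein of the inner nuclear membrane that also carries sterol C14-reductase activity. The sterol esterifying enzyme gene *Soat1* (41.9 ± 10.1 TPM, SD, n = 3), the HMG-CoA synthase gene *Hmgcs1* (38.7 ± 2.41 TPM, SD, n = 3) and the farnesyl diphosphate synthase gene *Fdps* (36.9 ± 1.48 TPM, SD, n = 3) followed, and the WT ranges of *Lbr*, *Soat1*, *Hmgcs1* and *Fdps* each overlapped with that of the next in order. At the low end stood *Hsd17b7* (4.55 ± 1.78 TPM, SD, n = 3), *Mvd* (3.85 ± 0.453 TPM, SD, n = 3) and *Tm7sf2* (3.65 ± 0.515 TPM, SD, n = 3). Of the 27 pairs of neighbours in this order, 24 overlapped over the WT libraries, so that the order is a rough one.

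**Figure D1:**
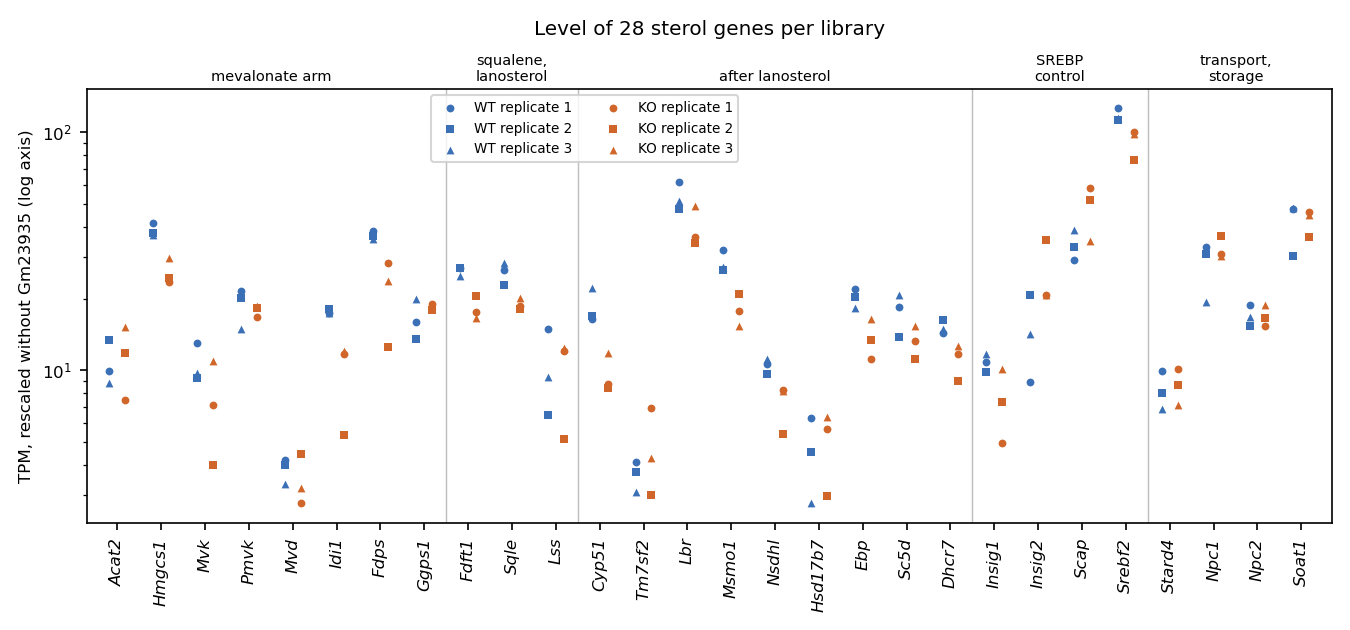
Level of each of the 28 genes in TPM rescaled without *Gm23935* (log axis), ordered by pathway stage, with 1 symbol per library in blue for WT and orange for KO. *Srebf2* is the highest gene in every library, and *Mvd*, *Tm7sf2* and *Hsd17b7* have the lowest WT means.

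The enzyme genes of synthesis had lower values in KO cells along most of the pathway, whereas most genes for moving and storing cholesterol did not on counts. On the log2(TPM + 1) scale in limma 3 of the 4 transport and storage genes also lay below 0. The values were -0.013 for *Stard4*, -0.074 for *Npc2* and -0.054 for *Soat1*, where the median of all genes was -0.06. All limma fits used the deposited TPM with *Gm23935* included, whereas the summed levels below are rescaled without it. Differences between the genotypes are log2 fold changes of counts, KO minus WT, given ± their standard error (SE). Of 20 enzyme genes, 18 had a difference below 0, with a median of -0.33, against 48.4% of all tested genes below 0 and a median of 0.01. Summed over the 20 genes, the level was 416.2, 367.8 and 380.8 TPM in the WT and 284.6, 251.0 and 320.5 TPM in the KO libraries. Every KO library thus lay below every WT library, with a KO mean at 73.5% of the WT mean. The 4 transport and storage genes summed to 109.1, 84.6 and 90.9 TPM in WT and 102.5, 97.9 and 100.9 TPM in KO libraries, with overlap. The libraries were compared with edgeR's quasi-likelihood test over all 21236 genes, and 0 of the 28 genes met both thresholds, adjusted p 0.05 and fold 0.58 on the log2 scale, as did 0% of all genes tested. The smallest adjusted p of a member in edgeR was 0.849 and that of any gene 0.392. At an unadjusted p under 0.05 edgeR gave 8 of the 28, all lower in KO, where 2.33% of all genes tested were lower, 2.99% higher and 5.32% either at that p. DESeq2, the test named in the study's methods, called 1 of the 28, *Cyp51*, beside 0.167% of the genes it tested, or 45 genes, a count that ran from 22 without KO replicate 1 to 130 without WT replicate 1. Since the list was taken up because of its difference between these genotypes, these numbers are a description.

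**Figure D2:**
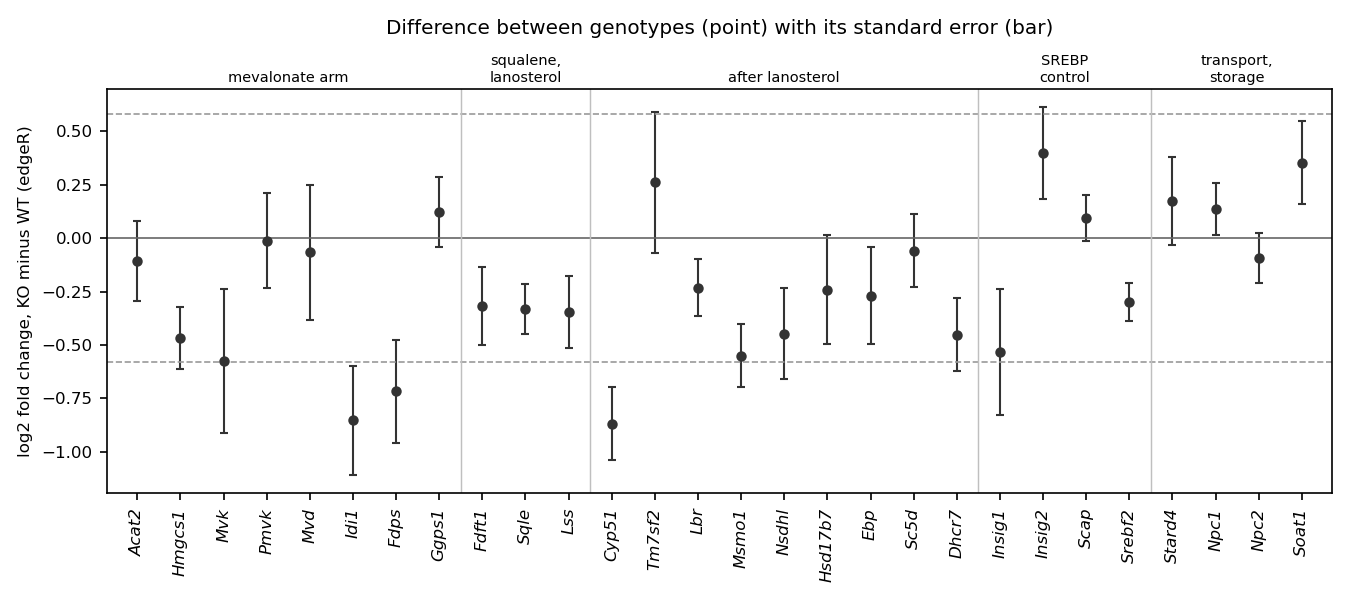
Log2 fold change (KO minus WT) of each gene from edgeR, points, with its standard error, bars, ordered by pathway stage; dashed lines mark 0.58 in each direction. *Cyp51* and *Idi1* lie lowest, at -0.87 and -0.85, and *Insig2* highest at 0.40.

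In the mevalonate arm 7 of 8 genes lay lower in KO cells, with a median log2 fold change of -0.29. *Idi1* (ENSMUSG00000058258, chromosome 13, 8885501 to 8892451 of GRCm38), whose product turns one isoprenoid unit into its reactive isomer, had 25.0, 29.1 and 25.8 CPM in the WT and 18.5, 9.18 and 16.5 CPM in the KO libraries. All KO values lay below all WT values, and KO replicate 2 stood far below the other two. The difference was -0.85 ± 0.25 (SE), with an adjusted p of 0.906 in edgeR. *Fdps* (ENSMUSG00000059743, chromosome 3, 89093588 to 89101959), which joins the units into farnesyl diphosphate, had 28.4, 28.7 and 25.8 CPM in the WT and 21.2, 10.8 and 18.3 CPM in the KO libraries. Its KO libraries stood in the same order as for *Idi1*, again under every WT library, and the difference was -0.72 ± 0.24 (SE), at the same adjusted p in edgeR. For *Hmgcs1* (ENSMUSG00000093930, chromosome 13, 119690379 to 119708260), which makes HMG-CoA, the values were 80.5, 69.5 and 60.7 CPM in the WT and 50.4, 44.6 and 57.3 CPM in the KO libraries, without overlap but with WT replicate 3 close to KO replicate 3. The difference was -0.47 ± 0.14 (SE, adjusted p 0.906 in edgeR).

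The kinases and the decarboxylase between HMG-CoA and the isoprenoid units were less uniform. *Mvk*, mevalonate kinase, had 12.2, 8.68 and 9.67 CPM in the WT and 5.67, 4.47 and 10.4 CPM in the KO libraries. KO replicate 3 lay here among the WT libraries, and the difference was -0.57 ± 0.34 (SE), which became -1.02 without KO replicate 3 and -0.35 without KO replicate 2. *Pmvk*, the next kinase, and *Mvd*, the decarboxylase, differed by -0.01 ± 0.22 and -0.07 ± 0.32 (SE), and without KO replicate 1 by 0.081 and 0.074. Every library moved *Pmvk* by over 1.5 times when left out, between -0.19 and 0.081, and every library but WT replicate 1 did so for *Mvd*, between -0.31 and 0.074. *Acat2*, the cytosolic thiolase that supplies acetoacetyl-CoA, differed by -0.11 ± 0.19 (SE), which became -0.031 without KO replicate 1 and -0.24 without KO replicate 3. *Ggps1*, which extends farnesyl to geranylgeranyl diphosphate on a branch away from sterols, was the one gene of the arm on the higher side, at 0.12 ± 0.16 (SE), which became 0.0052 without KO replicate 2 and 0.21 without KO replicate 3. With log2(TPM + 1) in limma *Acat2* and *Ggps1* differed by -0.023 and 0.064.

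Squalene and lanosterol formation takes 3 enzymes, and all 3 had negative differences. *Sqle*, squalene epoxidase, had 48.9, 43.4 and 51.3 CPM in the WT and 37.6, 36.7 and 39.9 CPM in the KO libraries, without overlap. *Fdft1*, squalene synthase, had 45.7, 53.6 and 37.8 CPM in the WT and 38.6, 42.2 and 29.0 CPM in the KO libraries, and *Lss*, lanosterol synthase, had 24.0, 26.1 and 22.2 CPM in the WT and 22.3, 17.0 and 17.7 CPM in the KO libraries. In both of the latter the highest KO library lay above the lowest WT library. The differences of *Fdft1*, *Sqle* and *Lss* were -0.32 ± 0.18, -0.33 ± 0.12 and -0.35 ± 0.17 (SE). On the log2(TPM + 1) scale in limma they were -0.49, -0.42 and -0.085, the last closer to 0 than on counts. The value of *Fdft1* was -0.19 without WT replicate 2 and also without KO replicate 3.

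After lanosterol, 8 of 9 genes were lower in KO, 4 of them without overlap between the genotypes, as 5.5% of all tested genes were. *Cyp51* (ENSMUSG00000001467, chromosome 5, 4081145 to 4104746), the lanosterol 14-demethylase that opens this part of the pathway, had 957, 735 and 863 counts in the WT and 352, 521 and 556 counts in the KO libraries. Normalized, these were 31.0, 25.7 and 33.1 CPM in the WT and 14.1, 17.4 and 17.8 CPM in the KO libraries, and the highest KO library was well below the lowest WT library. The difference was -0.87 ± 0.17 (SE). Its adjusted p was 0.849 in edgeR, while DESeq2 gave 0.0249. The DESeq2 call was lost without WT replicate 3 (adjusted p = 0.184) and without KO replicate 1 (adjusted p = 0.222), and in the other fits with 1 library left out its adjusted p lay between 0.00319 and 0.0450. *Cyp51* overlaps *Akap9* on the opposite strand, a gene with 98753 counts over the 6 libraries against 3984 for *Cyp51*. *Akap9* differed by -0.05 ± 0.12 (SE), and whether the counting used strand is not given in the sources used here. The same holds for *Fdft1* and *Ggps1*, with 7062 and 3636 counts in all, which overlap *Ctsb* (34477 counts) and *Arid4b* (45126 counts) on the opposite strand.

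The oxidase and the dehydrogenase that remove the methyl groups at carbon 4 followed *Cyp51*. *Msmo1*, the C4-methylsterol oxidase, had 29.3, 26.4 and 24.3 CPM in the WT and 18.4, 19.1 and 17.1 CPM in the KO libraries, all KO values under all WT values, and differed by -0.55 ± 0.15 (SE, adjusted p 0.906 in edgeR). *Nsdhl*, the dehydrogenase of the same step, had 14.4, 14.1 and 15.2 CPM in the WT and 12.0, 8.15 and 11.9 CPM in the KO libraries, also without overlap, with KO replicate 2 lowest and a difference of -0.45 ± 0.21 (SE). *Hsd17b7*, which completes that step, had overlapping values and a difference of -0.24 ± 0.25 (SE). *Dhcr7*, the reductase that finishes cholesterol from 7-dehydrocholesterol, was tight within each genotype, with 15.8, 15.8 and 14.5 CPM in the WT and 11.8, 11.3 and 10.6 CPM in the KO libraries and a difference of -0.45 ± 0.17 (SE). *Ebp*, the sterol isomerase, and *Sc5d*, the C5-desaturase, differed by -0.27 ± 0.23 and -0.06 ± 0.17 (SE), and the libraries of both overlapped. *Sc5d* moved by over 1.5 times with any library but KO replicate 3 left out, between -0.18 without WT replicate 2 and 0.019 without WT replicate 3. The value of *Ebp* became -0.11 without KO replicate 1, -0.18 without WT replicate 1 and -0.43 without KO replicate 3. On the log2(TPM + 1) scale in limma the differences of *Ebp*, *Sc5d* and *Hsd17b7* were -0.48, -0.35 and 0.027. The value of *Hsd17b7* on counts was -0.026 without WT replicate 1, and that of *Nsdhl* was -0.29 without KO replicate 2.

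Reduction of the C14 double bond can be carried out by the products of *Lbr* and *Tm7sf2*. Per length, *Lbr* was between 5.22 and 16.7 times as abundant as *Tm7sf2* in the 6 libraries. The ratio of their TPM values was 15.0, 12.7 and 16.7 in WT and 5.22, 11.5 and 11.4 in KO libraries. All KO ratios lay below all WT ratios on this scale, but ratios of counts overlapped, at 18.1, 14.9 and 22.9 in WT and 9.71, 14.7 and 16.2 in KO libraries. KO replicate 1 was set apart on both scales by a *Tm7sf2* level of 6.15 CPM against 3.15 to 4.17 CPM in the other 5 libraries. *Lbr* differed by -0.23 ± 0.13 (SE) on counts and by -0.46 with log2(TPM + 1) in limma, and by -0.14 without KO replicate 2. *Tm7sf2* differed by 0.26 ± 0.33 (SE), and by -0.015 without KO replicate 1, 0.14 without WT replicate 3 and 0.42 without KO replicate 2, and by 0.11 with log2(TPM + 1) in limma. *Tm7sf2* overlaps *Vps51* on its strand and has 712 counts in all against 3737, and how reads of this locus were shared between them was not tested.

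**Figure D3:**
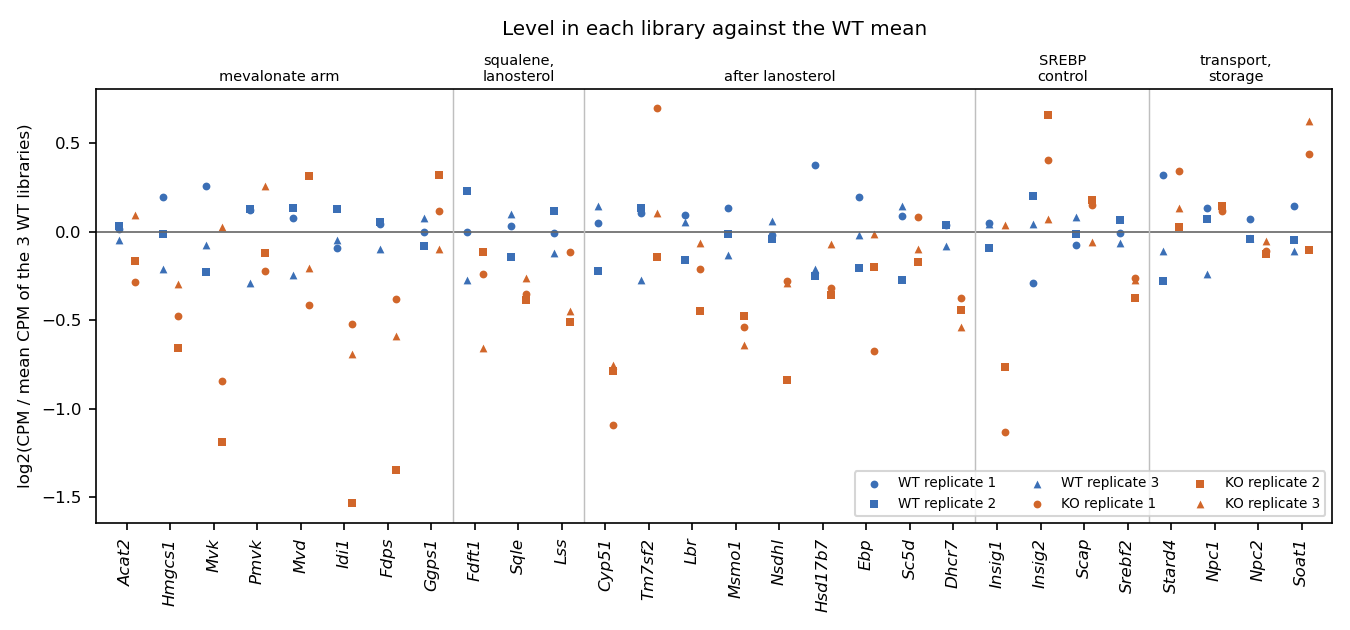
Log2 ratio of each library's CPM to the mean CPM of the 3 WT libraries, per gene in pathway order, with WT in blue and KO in orange and a symbol for each replicate. The KO symbols lie below all WT symbols for 10 genes, among them *Cyp51*, *Idi1* and *Fdps*, and above them for 0 genes.

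Over all 28 genes, the KO values lay below the WT values without overlap in 10, where 5.5% of all tested genes did so, and above them in 0, where 6.23% did so (11.7% in either direction). Beside *Hmgcs1*, *Idi1*, *Fdps*, *Sqle*, *Cyp51*, *Msmo1*, *Nsdhl* and *Dhcr7*, these were *Srebf2* and *Npc2*. Every KO library took part in the lower values. KO replicate 2 held the lowest value of 9 of the 20 enzyme genes, KO replicates 1 and 3 of 4 each, and the WT replicates 1, 2 and 3 of 0, 1 and 2. The mean deviation of the 20 genes from their own mean over all libraries was 0.26, 0.15 and 0.10 in WT and -0.14, -0.28 and -0.08 in KO libraries on the log2 CPM scale, whereas that of all tested genes lay between -0.07 and 0.05. With each library left out in turn, the median log2 fold change of the enzyme genes lay between -0.37 and -0.31. For 10 genes the difference stayed within 1.5 times its value in each of these fits, the enzyme genes *Hmgcs1*, *Idi1*, *Fdps*, *Sqle*, *Lss*, *Cyp51*, *Msmo1* and *Dhcr7* and the genes *Srebf2* and *Npc2*, and for the other 18 it did not.

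The 4 regulator genes differed in direction, 2 lower and 2 higher in KO. *Srebf2* (ENSMUSG00000022463, chromosome 15, 82147181 to 82205379) had 209.6, 220.5 and 202 CPM in the WT and 176, 163 and 174 CPM in the KO libraries. Its groups did not overlap and were narrow, with coefficients of variation of 4.49% in WT and 4.22% in KO, and the difference was -0.30 ± 0.09 (SE, adjusted p 0.906 in edgeR). *Scap*, the escort of SREBP2, differed by 0.09 ± 0.11 (SE) with overlapping values, and by 0.35 on the log2(TPM + 1) scale in limma. Leaving out 1 library moved it to 0.039 (WT replicate 1), 0.042 (KO replicate 2), 0.061 (KO replicate 1) or 0.15 (KO replicate 3).

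*Insig1* and *Insig2* encode proteins that retain SCAP, and *Insig1* is itself an SREBP target. *Insig1* (ENSMUSG00000045294, chromosome 5, 28071363 to 28078662) had 16.1, 14.6 and 16.0 CPM in the WT and 7.11, 9.15 and 15.9 CPM in the KO libraries. KO replicates 1 and 2 were well below every WT library, but KO replicate 3 lay among them, and the difference was -0.53 ± 0.29 (SE), which became -0.95 without KO replicate 3 and -0.31 without KO replicate 1. *Insig2* (ENSMUSG00000003721, chromosome 1, 121304353 to 121332589) had 11.9, 16.7 and 15.0 CPM in the WT and 19.2, 22.9 and 15.3 CPM in the KO libraries, with its 2 highest values in KO replicates 1 and 2 and a difference of 0.40 ± 0.21 (SE, adjusted p 0.920 in edgeR), which became 0.25 without WT replicate 1 and 0.24 without KO replicate 2. Per length, the ratio of *Insig2* to *Insig1* was 0.828, 2.09 and 1.21 in WT and 4.17, 4.77 and 2.04 in KO libraries. On this scale the ranges met only through WT replicate 2 and KO replicate 3, and *Insig2* was the less abundant of the pair in WT replicate 1 alone. Ratios of counts were 0.738, 1.14 and 0.935 in WT and 2.70, 2.50 and 0.958 in KO libraries, with KO replicate 3 inside the WT range.

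Among the genes that move and store cholesterol, 3 of 4 lay on the higher side in KO, with a median log2 fold change of 0.15. *Soat1*, which esterifies cholesterol for storage, had 33.4, 29.2 and 27.9 CPM in the WT and 40.9, 28.1 and 46.6 CPM in the KO libraries, with KO replicates 1 and 3 above every WT library and KO replicate 2 among them, and a difference of 0.35 ± 0.19 (SE). *Npc1* and *Npc2*, whose products release cholesterol from lysosomes, differed by 0.14 ± 0.12 and -0.09 ± 0.12 (SE), and *Npc1* by 0.031 without WT replicate 3. *Npc2* belonged to the 10 genes without overlap, yet its KO mean of 31.3 ± 0.842 CPM (SD, n = 3) was close to its WT mean of 33.4 ± 1.45 CPM (SD, n = 3). *Stard4*, a cytosolic sterol carrier and an SREBP target, differed by 0.17 ± 0.20 (SE). Leaving out 1 library moved *Soat1* to 0.17 (KO replicate 3) or 0.53 (KO replicate 2), and *Stard4* to 0.053 (WT replicate 2), 0.080 (KO replicate 1) or 0.35 (WT replicate 1). On the deposited log2(TPM + 1) scale, which includes *Gm23935*, *Soat1* and *Stard4* lay on the other side of 0, as given above. On TPM rescaled without *Gm23935*, *Soat1* had means of 41.9 in WT and 42.4 in KO, and *Stard4* of 8.29 and 8.67.

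**Figure D4:**
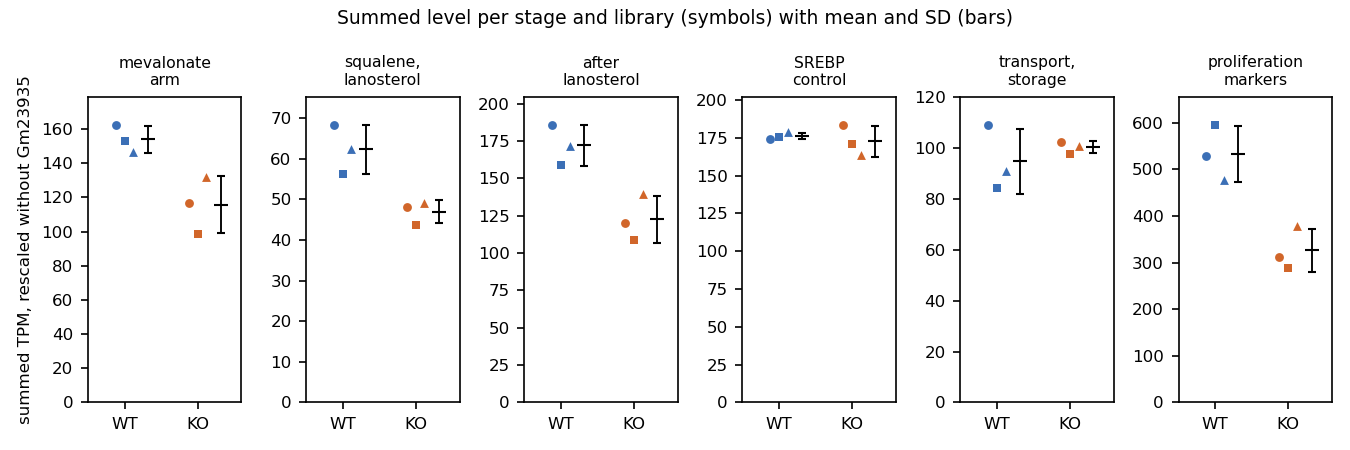
Summed TPM, rescaled without *Gm23935*, of the genes of each pathway stage and of 9 proliferation markers per library (symbols), with mean and SD over 3 mice (bars), on axes that start at 0. The WT and KO libraries do not overlap for the mevalonate, squalene and lanosterol, and after-lanosterol stages and for the proliferation markers, and overlap for SREBP control and for transport and storage.

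Spread between mice was smaller in WT than in KO for 18 of the 28 genes and larger for 10. The median coefficient of variation of the 28 genes was 9.43% in WT and 14.1% in KO, against 22.4% and 21.7% over all tested genes, which include many of lower counts. It was 8.14% and 33.4% for *Idi1*, 5.83% and 31.9% for *Fdps* and 5.36% and 43.1% for *Insig1* in WT and KO, whereas it was 13.3% and 1.12% for *Npc1*, 22.0% and 11.3% for *Stard4* and 25.8% and 11.1% for *Hsd17b7*, values that rest on 3 mice each and were not tested against each other.

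Other genes of the pathway were counted from a list of 27. Of these, 13 were lower and 14 higher in KO, with a median log2 fold change of 0.02, and 0 passed in edgeR or DESeq2, while 3 had an unadjusted p under 0.05 in edgeR, 1 lower and 2 higher, beside 2.33% and 2.99% of all tested genes. The 7 genes for SREBP processing and sterol-regulated protein degradation were lower in 1 case and higher in 6 (median 0.13), and the 8 sterol transfer genes were split evenly, with 4 lower and 4 higher. The 8 genes that use isoprenoids were lower in 5 cases and higher in 3 (median -0.22), and their summed level of 202.5 to 222.6 TPM in WT and 161.0 to 188.7 TPM in KO libraries did not overlap. The 4 genes of acetyl-CoA supply summed to 113.3 to 143.6 TPM in WT and 104.0 to 107.5 TPM in KO libraries, with 3 of 4 lower.

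Markers of proliferating cells were lower in KO libraries alongside the enzyme genes. All 9 proliferation markers, *Mki67* and *Top2a* among them, had lower values in KO (median log2 fold change -0.56), and their summed level lay between 476.4 and 594.7 TPM in WT and between 287.7 and 378.4 TPM in KO libraries. No marker of any list passed in edgeR or DESeq2, and 6 of the 9 proliferation markers were lower at an unadjusted p under 0.05 in edgeR, where 2.33% of all tested genes were. All 9 basal markers had higher values in KO (median 0.41, 5 of them at an unadjusted p under 0.05 in edgeR, where 2.99% of all tested genes were higher), and among luminal markers 7 were higher and 2 lower (median 0.08). The fibroblast list had 5 of 6 members lower (median -0.39), the adipocyte list 5 of 6 lower (median -0.34, with 3 of its members at 0 counts in at least 1 library), the endothelial list 2 of 5 lower (median 0.03) and the blood cell list 0 of 5 lower (median 1.17). The part of these differences in the lower level of the sterol enzymes was not tested.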

How the data were processed

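RNA-seq libraries of 6 mice had been made from total RNA with a stranded kit for low input. The authors estimated counts per gene with Salmon 1.2.1 on an mm10 transcriptome and assembled them with tximport; the estimated counts are deposited as whole numbers without normalization, and TPM values are deposited as log2 values after an offset of 1. Gene symbols and positions were taken from a GRCm38 annotation, which matched 54166 of 54418 identifiers. Counts were normalized by TMM and tested with edgeR 4.0.16 (R 4.3.3) using filterByExpr, with Benjamini-Hochberg adjustment over all genes. A call needed adjusted p ≤ 0.05 and a difference of 0.58 or more on the log2 scale. For levels, TPM was recovered from the log2 values and rescaled to the same total without *Gm23935*. Standard errors were derived from the fold change and its F statistic. DESeq2 1.42.0 with apeglm 1.24.0 on counts and limma 3.58.1 on the deposited TPM, with *Gm23935* included, served as alternatives. The fits were tested on simulated data. The genes named are the 28 members, *Glis2*, and genes that overlap a member; *Mki67*, *Top2a* and *Gm23935* were named after their values were seen. The members and all lists were chosen with earlier results of these data known. The labels give no pairing of mice by replicate number. Same-numbered deviations correlated at -0.02, 0.17 and 0.02, and with 3 libraries per genotype these values cannot decide whether mice were paired. No library was a copy of another. Total counts of 24996524 to 31393917 gave each member 80 to 6466 counts per library, and 3 mice per genotype limit the precision. P-values set each difference against the spread between these mice, estimated with information shared across genes.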

Additional observations from a re-analysis of the deposited data

How the results depend on the processing

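No member passed both thresholds in edgeR with DESeq2's size factors, without a filter, with at least 10 counts in every library, with a replicate block or without a fold threshold, nor in limma with log2(TPM + 1) or log2(TPM + 0.1). DESeq2 with apeglm called 1 member, and 0 to 1 with each library left out in turn, fits added after seeing the data. Over all genes the count of 0 became 45 with DESeq2 (22 to 130 with each library left out), 40 without a filter on low counts and 1 with log2(TPM + 0.1) in limma, and stayed at 0 with each library left out in edgeR. The median log2 fold change of the members, -0.26, was -0.36 with log2(TPM + 1) and -0.48 with log2(TPM + 0.1), and that of the enzyme genes was -0.53 with the latter, where the median of all genes was -0.14. With each library left out the median ranged from -0.32 to -0.19 for the members and from -0.37 to -0.31 for the enzyme genes, and the number lower in KO from 19 to 21 and from 16 to 18. With a replicate block these medians were -0.26 and -0.33, 21 and 18 genes were lower, and no call changed.

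Both limma fits used the deposited TPM, with *Gm23935* included. With log2(TPM + 1) and log2(TPM + 0.1) in limma, *Hsd17b7* turned to 0.027 and 0.042, *Stard4* to -0.013 and -0.028, and *Soat1* to -0.054 and -0.061. With each library left out, the direction turned for *Pmvk* (-0.19 to 0.081), *Mvd* (-0.31 to 0.074), *Sc5d* (-0.18 to 0.019) and *Tm7sf2* (-0.015 to 0.42). The other 21 members kept their direction in all 13 alternative fits. The cause of these changes of direction was not tested. On the deposited TPM scale, with *Gm23935* included, the median WT level of the members was 2.84 TPM in place of 17.6 TPM, the value rescaled without that gene.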
